A study of Mus musculus with 9 samples.

Results

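Pdpn and Lrmda are a pair of mouse genes whose RNA was lower after deletion of Drosha and after deletion of Dicer1 in cultured blood progenitors. They were chosen by name because of measured values, as the genes that were lower in both deletions, so their differences from controls are given as a description with no test. They are 2 of the 36315 genes or regions on the array, and 2 of the 23027 that passed the filter on dim probes. The cells were LSK cells, sorted from bone marrow as cells with Sca1 and cKit but no lineage marker, a population enriched in blood stem cells and early progenitors. The Drosha KO group had floxed Drosha, the Dicer KO group had floxed Dicer1, and the control group had neither. All 3 groups came from female mice with Gt(ROSA)26Sor CreERT2, a Cre recombinase in the ubiquitously expressed Rosa26 locus that acts once tamoxifen is present, so the controls carried the recombinase too. Every group was cultured for 72 h at 50000 cells a well, in 10% serum with 50 ng/mL SCF, 10 ng/mL IL-6 and 10 ng/mL IL-3, and received 250 nM 4OH-tamoxifen. Each group had 3 one-colour arrays, and the labels do not say whether they came from separate animals, so spreads and p-values describe these samples and may be technical. In bulk RNA such as this, fewer cells of a type and less RNA per cell cannot be told apart.

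Pdpn encodes podoplanin, a small mucin-like membrane glycoprotein. Its extracellular part binds CLEC-2, the platelet receptor encoded by Clec1b, and its short cytoplasmic tail binds ezrin and moesin, which tie the membrane to actin. It is best known on lymphatic endothelium and lymph node stroma, where contact with platelets helps keep blood and lymph vessels apart, and it is also found on some macrophages. Lrmda encodes a small leucine-rich repeat protein. In humans its loss causes a form of oculocutaneous albinism, and the human protein is reported to bind the Rab32 and Rab38 GTPases, which direct traffic to melanosomes and other lysosome-related organelles. Drosha and Dicer carry out successive steps of microRNA production, Drosha in the nucleus and Dicer in the cytoplasm.

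The array carried 3 probes for these genes, and the sequences are shown because they fix which part of each RNA was read. Pdpn had a distal probe at chr4:142857339-142857398 on mm9, minus strand, at position 1695 of its transcript. It also had a junction probe at chr4:142858329-142859146, at transcript position 708. The single Lrmda probe, which the files list under the older name 1700112E06Rik, lay on the plus strand at chr14:23403747-23415685 and transcript position 544. The junction probe spans 818 genomic bases and the Lrmda probe 11939, although each has 60 bases, so each crosses at least 1 intron and reads spliced RNA. The distal probe spans 60 genomic bases and crosses none. The sequences of both junction-crossing probes, as the scanner files give them, are these.
Pdpn junction probe: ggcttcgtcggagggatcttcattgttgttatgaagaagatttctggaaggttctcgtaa
Lrmda probe: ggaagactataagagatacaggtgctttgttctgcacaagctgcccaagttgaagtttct

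The distal Pdpn probe lay well above background on 8 of 9 arrays, all but Dicer KO replicate 2, and the Lrmda probe on 9 of 9. Both were kept and stand for their genes here. The junction probe of Pdpn lay well above background on 1 array and was not kept.

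The stretch before each start site is shown so that the promoters of the pair can be set side by side. The 250 bases come from RefSeq, GRCm38.p6, at chr4:143299565-143299814 on the minus strand for Pdpn and chr14:22019462-22019711 on the plus strand for Lrmda. Capitals mark the only match among 6 short motifs searched on both strands.
Pdpn promoter: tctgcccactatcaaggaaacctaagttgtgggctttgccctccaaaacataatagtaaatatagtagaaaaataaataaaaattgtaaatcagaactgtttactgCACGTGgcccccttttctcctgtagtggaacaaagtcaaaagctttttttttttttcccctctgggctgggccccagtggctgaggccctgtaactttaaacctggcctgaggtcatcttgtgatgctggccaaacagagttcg
Lrmda promoter: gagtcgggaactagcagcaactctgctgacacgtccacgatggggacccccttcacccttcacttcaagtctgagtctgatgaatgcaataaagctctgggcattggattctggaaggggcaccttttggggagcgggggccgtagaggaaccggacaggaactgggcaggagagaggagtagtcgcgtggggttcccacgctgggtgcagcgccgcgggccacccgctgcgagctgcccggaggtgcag

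The capitals are the E-box CACGTG, found once in the Pdpn promoter, 144 bases before the start, and absent from that of Lrmda. It occurs in 6.02% of the 32851 promoters of the same length. The AP-1 motif TGACTCA (4.46% of promoters), the RUNX motif TGTGGT (14.045%), the GATA-factor motif AGATAA (9.99%), the ETS motif GGAAGT (19.7%) and the TATA motif TATAAA (12.4%) were found in neither. CACGTG reads the same on both strands and overlaps none of the other motifs, and a match is a description of letters. The promoters also differed in base composition, with 43.2% G and C for Pdpn and 62.4% for Lrmda, below the lower quartile and above the upper quartile of all promoters, 45.2% and 61.2%.

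Facts about the arrays touch the values that follow. The scanner file of control replicate 2 had 18.9% of spots marked non-uniform, against at most 0.0472% in the others, and the authors' column for that sample correlated at 0.935 with its own file and at 0.986 with the file of control replicate 3. Among the authors' columns, control replicates 2 and 3 correlated at 0.994 with each other, while control replicate 1 correlated at 0.977 to 0.981 with them and at 0.989 to 0.994 with the 6 KO columns. Control replicate 3 was alone on slide 2 and the other 8 scanner files were from slide 1. The Drosha probe averaged 9.01 ± 0.27 in Drosha KO, against 12.03 ± 0.11 in Dicer KO and 11.92 ± 0.10 in control, and the Dicer1 probe 9.05 ± 0.11 in Dicer KO, against 10.44 ± 0.41 in Drosha KO and 10.29 ± 0.32 in control (log2, SD, n = 3 each). The values of the pair are therefore also given against control replicate 1 alone and from the scanner signal.

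Pdpn was lower than in control after either deletion. On the authors' log2 scale the distal probe read 6.24, 6.25 and 6.44 in Drosha KO replicates 1 to 3, 6.38, 5.71 and 6.28 in Dicer KO, and 7.83, 8.44 and 7.93 in control. All 6 KO arrays lay below all 3 controls, and the lowest value was that of Dicer KO replicate 2, the array on which the probe was not well above background. The means were 6.31 ± 0.12 in Drosha KO, 6.12 ± 0.36 in Dicer KO and 8.06 ± 0.33 in control (SD, n = 3 each). The difference from control was thus −1.75 log2 units in Drosha KO, 3.37-fold lower, and −1.94 log2 units in Dicer KO, 3.84-fold lower.

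Lrmda was also lower in both deletions. Its values were 6.70, 7.05 and 6.72 in Drosha KO, 6.999, 6.88 and 7.08 in Dicer KO, and 8.65, 8.72 and 9.04 in control. The 6 KO arrays spanned 0.38 log2 units, against 0.74 for Pdpn, whose span includes Dicer KO replicate 2. For both genes the span was less than the distance between the KO arrays and the nearest control. Within Drosha KO the SD was larger for Lrmda, 0.19 against 0.12 for Pdpn. The means were 6.82 ± 0.19 in Drosha KO, 6.99 ± 0.10 in Dicer KO and 8.80 ± 0.21 in control (SD, n = 3 each). The difference from control was −1.98 log2 units in Drosha KO, 3.95-fold lower, and −1.82 in Dicer KO, 3.52-fold lower.

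**Figure D1:**
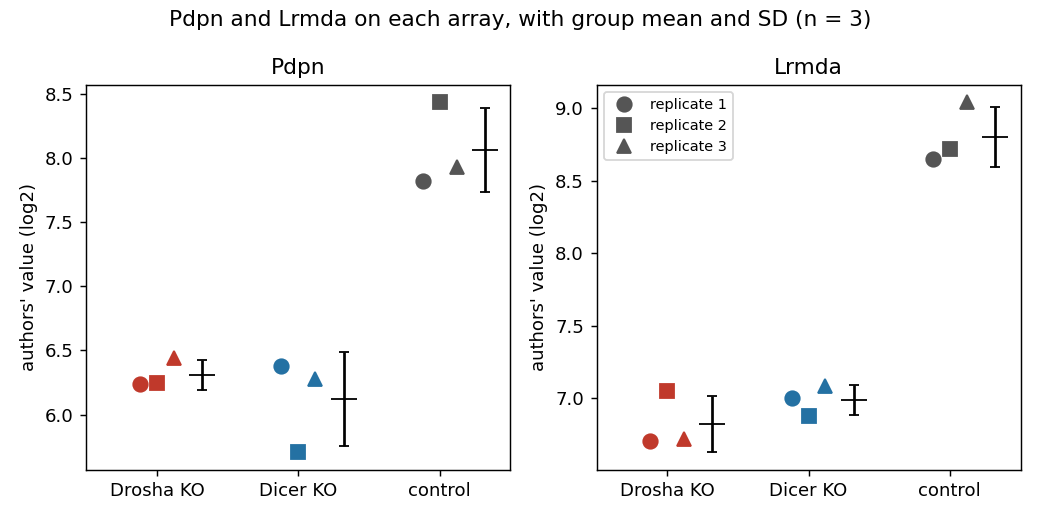
Authors' log2 value of Pdpn (left) and Lrmda (right) on each array of Drosha KO, Dicer KO and control, with a marker shape per replicate number and the group mean and SD (n = 3). The 6 KO arrays lie between 5.71 and 6.44 for Pdpn and between 6.70 and 7.08 for Lrmda, below the lowest controls at 7.83 and 8.65.

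From low to high, the order of the levels was Dicer KO, Drosha KO and control for Pdpn, and Drosha KO, Dicer KO and control for Lrmda, and the 2 KO groups overlapped in both. Without Dicer KO replicate 2, the array on which the Pdpn probe was not well above background, the means of Pdpn in the KO groups stood in the other order. In Drosha KO minus Dicer KO, limma called 13 of 23027 genes or regions (0.0565%) at an adjusted p of 0.05. The pair was not among them, and its choice as lower in both deletions used the same KO values and favours a small difference between them, so the differences are given as a description. Pdpn differed by 0.19 log2 units in Drosha KO minus Dicer KO (SE 0.22, 95% interval −0.30 to 0.68), or by −0.018 without Dicer KO replicate 2. Lrmda differed by −0.16 (SE 0.15, interval −0.50 to 0.18). The intervals reach up to 0.68 log2 units for Pdpn and down to −0.50 for Lrmda.

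Separation from the controls can be set beside that of all other genes. In Drosha KO against control 0.169% of genes passed the threshold in either direction, and in Dicer KO against control 0.0174%, among them both genes in both cases, which the choice of genes fixes. All 3 Drosha KO arrays lay below all 3 controls for 10.5% of genes, all 3 Dicer KO arrays did for 9.94%, and all 6 did for 3.94%. The lowest control stood above the highest KO array by 1.57 log2 units for Lrmda and by 1.38 for Pdpn, and a gap of at least 1 unit was found for 3 genes, 0.013% of those tested. The third was Fmr1nb, a gene best known from testis, at 1.14, followed by Mmp12, a macrophage elastase, at 0.82. These are descriptions, since the pair was chosen for being lower.

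At the threshold, the least certain of each gene's 2 adjusted p-values orders the genes that were lower in both deletions. Lrmda and Pdpn were the 2 inside it, which their choice as genes lower in both deletions fixes, with the differences given above. The counts of settings that follow are therefore a description. Their place there depended on the setting, since Lrmda was inside in both comparisons under 12 of 20 settings and Pdpn under 4 of 20. Leaving out any array other than control replicate 1 put Pdpn outside, and leaving out control replicate 2 or any Dicer KO array did so for Lrmda. The settings overlap in part, so they are not independent of each other. Just outside lay H2-Eb2, a class II histocompatibility gene, at −0.62 in Drosha KO minus control and −1.11 in Dicer KO minus control, Fmr1nb at −1.91 and −1.90, and 1110046J04Rik at −0.72 and −0.99.

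Control replicate 1, whose column stood nearest to the KO columns over all genes, was also the lowest control for both genes. It differed from the mean of control replicates 2 and 3 by −0.36 log2 units for Pdpn and −0.23 for Lrmda. Against control replicate 1 alone the difference of Pdpn was −1.51 in Drosha KO and −1.70 in Dicer KO, and that of Lrmda was −1.83 and −1.67.

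In the scanner files the processed signal of the distal Pdpn probe was 33.5, 39.1 and 45.4 in Drosha KO, 48.1, 13.2 and 40.7 in Dicer KO, and 213, 115 and 155 in control. The controls were the 3 brightest arrays, and control replicate 2 was the dimmest of them although its file had by far the highest median signal, 529 against 31.0 to 53.8. The Lrmda probe read 65.2, 82.6 and 65.4 in Drosha KO, 97.9, 78.8 and 99.8 in Dicer KO, and 394, 1135 and 425 in control. Again the 3 controls were brightest, but the 1135 of control replicate 2 came from a spot marked non-uniform and was left out of the scanner fits, so that Lrmda rests there on 2 controls. No spot of these probes was saturated.

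Scaled to the 75th percentile of each array, the scanner signal of Pdpn was −4.22, −4.06 and −3.59 log2 units in Drosha KO, −3.85, −5.57 and −3.92 in Dicer KO, and −1.72, −3.88 and −1.97 in control. Here control replicate 2 lay among the KO arrays, while the other controls lay above all of them. Without control replicate 2, the difference of Pdpn was −2.11 in Drosha KO and −2.6 in Dicer KO, and with it −1.43 and −1.92, where the median of all genes stood at 0.28 and 0.29. Lrmda was −3.26, −2.98 and −3.06 in Drosha KO, −2.82, −2.99 and −2.63 in Dicer KO, and −0.84 and −0.51 in control replicates 1 and 3. Its scanner differences were −2.43 in Drosha KO and −2.14 in Dicer KO.

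The junction probe of Pdpn gave no second reading of the gene. Its scanner signal was 9.41, 5.29 and 8.53 in Drosha KO, 9.72, 5.18 and 20.9 in Dicer KO, and 20.5, 542 and 4.45 in control, and only the 542 of control replicate 2 was well above background. In the authors' values the probe read 5.62, 5.07 and 5.42 in Drosha KO, 5.45, 5.24 and 5.64 in Dicer KO, and 5.74, 5.56 and 5.26 in control. The 3 groups overlapped, and the probe was not well above background on the other 8 arrays, so the lower Pdpn values rest on the distal probe alone.

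**Figure D2:**
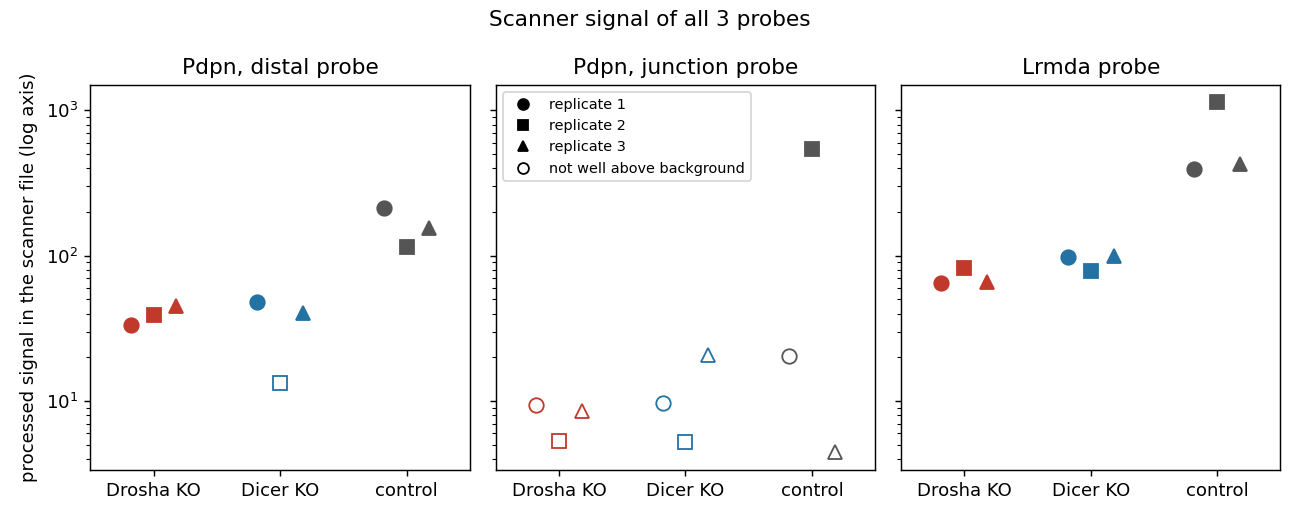
Processed signal in the scanner file (log axis) for the 3 probes of Pdpn and Lrmda in Drosha KO, Dicer KO and control, with a marker shape per replicate number and open markers where the spot was not well above background. The control points of the distal Pdpn probe, 115 to 213, and of Lrmda, 394 to 1135, lie above all 6 KO points, while the junction probe of Pdpn is mostly open markers apart from 542 in control replicate 2. These signals are not scaled between arrays, and the 1135 is from a non-uniform spot of control replicate 2. After scaling, that array lay among the KO arrays for the distal Pdpn probe.

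Under 20 settings in all, which overlap in part, the differences of both genes from control stayed below 0, as their choice favours. For Pdpn they ranged from −2.11 to −0.58 in Drosha KO and from −2.6 to −0.76 in Dicer KO, and for Lrmda from −2.43 to −1.69 and from −2.14 to −1.56. The smallest Pdpn differences came from background correction of the scanner signal by normexp with quantile scaling over all 9 arrays. In that setting control replicate 2 read 6.37, below all 6 KO arrays at 6.58 to 7.19. Control replicates 1 and 3 read 8.27 and 8.36. There the median of all genes stood at 0.21 in both comparisons, so that relative to other genes Pdpn was lower by more than these values.

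**Figure D3:**
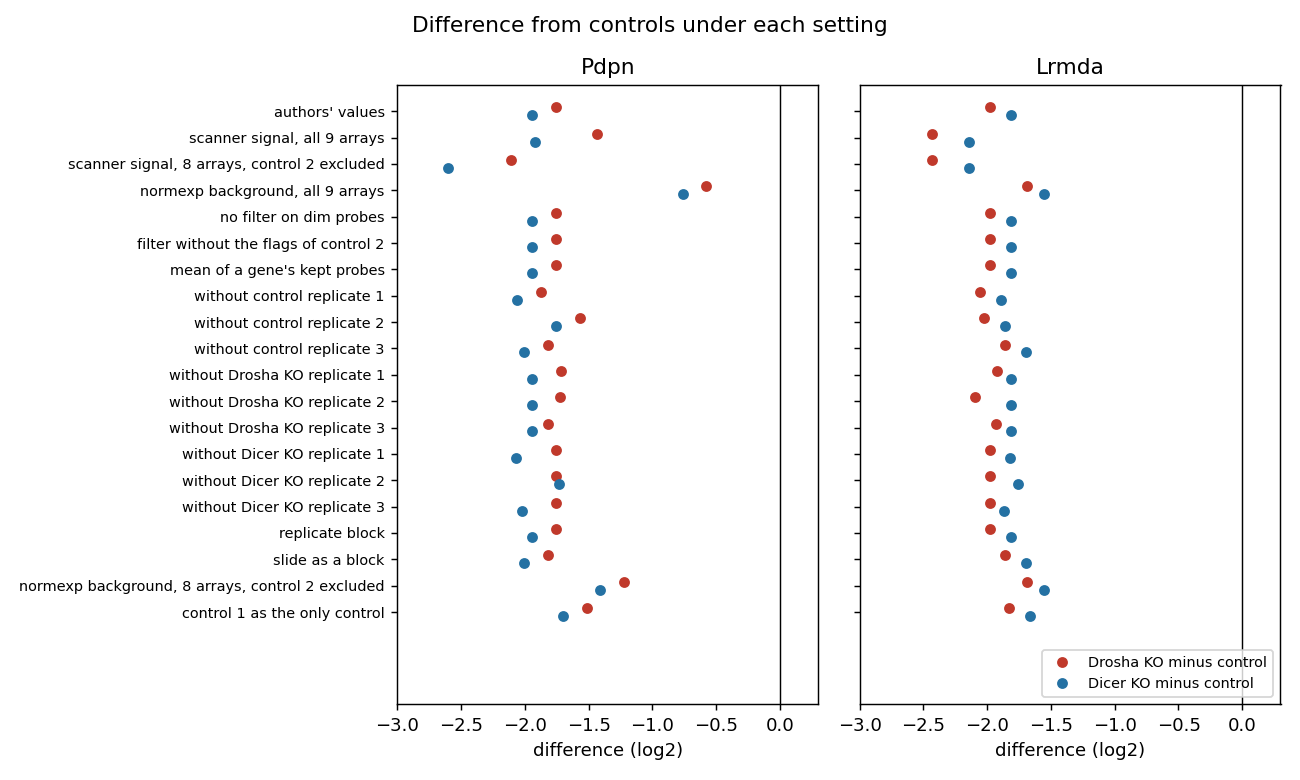
Difference from control in log2 units for Pdpn (left) and Lrmda (right) under each setting, for Drosha KO minus control and Dicer KO minus control. All points lie left of 0, and the widest range is that of Pdpn in Dicer KO, −2.6 to −0.76.

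Genes around podoplanin and LRMDA were read from 7 lists, which hold 73 measured genes. By limma, 0 of the 73 passed in Drosha KO minus control, Dicer KO minus control or Drosha KO minus Dicer KO, and at an unadjusted p under 0.05 there were 16, 15 and 4, beside 26.9%, 21.9% and 5.65% of all genes. Leaving out control replicate 1 changed this: 20 and 17 of the 73 then passed against control, beside 33.6% and 30.5% of all genes. The medians given below can be read against the medians of all genes, −0.00212 in Drosha KO minus control and −0.00162 in Dicer KO minus control.

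Of 8 partners of podoplanin, all were measured, with a median of 0.05 in Drosha KO and −0.16 in Dicer KO. Clec1b, the CLEC-2 receptor itself, read 13.14, 12.001 and 12.91 in Drosha KO, 12.17, 11.96 and 12.02 in Dicer KO, and 13.38, 13.14 and 12.61 in control. The 3 Dicer KO arrays lay below all controls and the Drosha KO arrays overlapped them, at differences of −0.99 (limma adjusted p = 0.165) and −0.36 (limma adjusted p = 0.443). Cd9, a tetraspanin that binds podoplanin, differed by −0.57 in Drosha KO and −0.68 in Dicer KO, and Lgals8, a galectin that binds it, by 0.27 and −0.07. The 10 genes that carry the CLEC-2 signal had medians of −0.30 and −0.24. Among them Lcp2, the adaptor SLP-76, differed by −0.41 and −0.63, Lat, a membrane adaptor, by −0.53 and −0.53, and Vav1, an exchange factor for Rac, by −0.36 and −0.37.

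Of 12 reported inducers of Pdpn 11 were measured, and Prox1, the lymphatic regulator, was below the filter. Their medians were −0.05 in Drosha KO and −0.02 in Dicer KO. Tgfbr1, a TGF-beta receptor, differed by 0.73 and 0.37, and the AP-1 subunits Fos by −0.61 and −0.60 and Jun by −0.08 and −0.66. The 10 genes of ROCK signalling and the actin cytoskeleton, which podoplanin engages through ezrin and moesin, had medians of −0.03 and −0.03. Rhoc, a small GTPase, differed by −0.70 and −0.95, Rock1, its effector kinase, by −0.86 and −0.73, and Limk1, a kinase that acts on cofilin, by 0.63 and 0.52.

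On the side of Lrmda, 2 of 6 other albinism genes were measured. Slc24a5, an ion exchanger of melanosomes, differed by −0.81 in Drosha KO and −0.89 in Dicer KO (limma adjusted p = 0.0976 and 0.139), and Tyr, the tyrosinase of melanin synthesis, by 0.32 and 0.24. Oca2, Tyrp1, Slc45a2 and Dct were below the filter. Of 18 genes of lysosome-related organelles 16 were measured, with medians of −0.06 and −0.08. Of the partner GTPases, Rab32 differed by −0.07 and −0.03 and Rab38 by −0.31 and −0.22. Bloc1s3, a subunit of a sorting complex, differed by 0.96 and 0.79, Myo5a, a melanosome motor, by 0.53 and 0.20, and Ap3d1, an adaptor subunit, by 0.52 and 0.40.

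The Commander complex recycles membrane proteins from endosomes, and LRMDA is reported to connect it with Rab32. All 16 of its genes were measured, with medians of −0.05 in Drosha KO and −0.10 in Dicer KO. The retriever subunit Vps35l differed by 0.03 and −0.16, Vps26c by −0.26 and −0.37, Commd8 by −0.34 and −0.36, and Commd3 by −0.17 and −0.24. The limma adjusted p of the genes named from the 7 lists lay above the threshold in all of these.

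**Figure D4:**
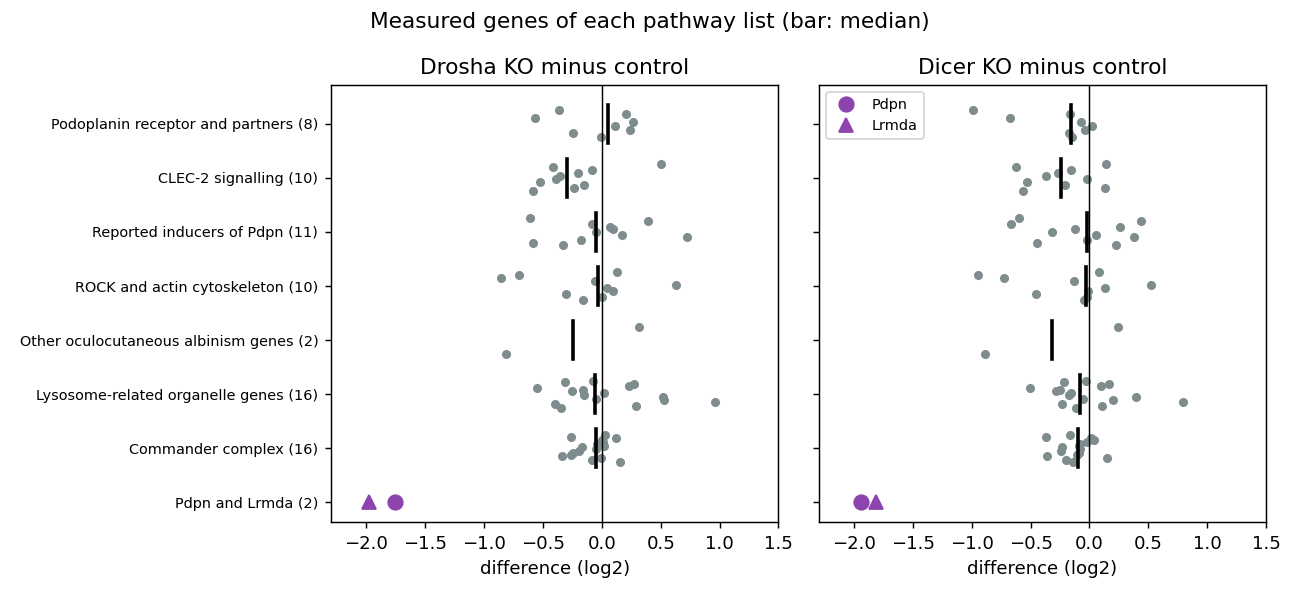
Difference in log2 units for each measured gene of the 7 pathway lists (grey points, black bar at the median, number of genes beside the name) and for Pdpn and Lrmda (purple), for Drosha KO minus control (left) and Dicer KO minus control (right). The pair lies between −1.98 and −1.75 in Drosha KO and between −1.94 and −1.82 in Dicer KO, and the lowest list genes are Rock1 at −0.86 in Drosha KO and Clec1b at −0.99 in Dicer KO.

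Genes with the most similar pattern over the 9 authors' columns were sought among 7684 genes with a range of at least 1 log2 unit. The columns share the same arrays and groups, so the correlations describe these samples. For Pdpn the 5 highest Pearson correlations were with Dlx5, a homeobox factor (0.958), a transcript listed under an identifier alone (0.950), Gpx8, a peroxidase of the endoplasmic reticulum (0.949), Lrmda (0.943) and Slc37a2, a sugar phosphate transporter (0.941). For Lrmda they were with another transcript listed under an identifier alone (0.965), a lincRNA region at chr12:77550684-77551505 on mm9 (0.949), Pdpn (0.943), Slc37a2 (0.937) and Eda2r, a receptor of the tumour necrosis factor family (0.933). Each of the pair was thus among the 5 genes most like the other, and Slc37a2 was in both lists. The choice of the pair as lower in both deletions favours a high correlation between them, so their mutual rank is a description. The differences of these genes were smaller than those of the pair in most cases. Dlx5 differed by −0.56 in Drosha KO and −0.59 in Dicer KO, Gpx8 by −1.004 and −1.06, Slc37a2 by −0.76 and −0.77, Eda2r by −0.75 and −0.73, and the lincRNA region by −1.91 and −1.22.

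**Figure D5:**
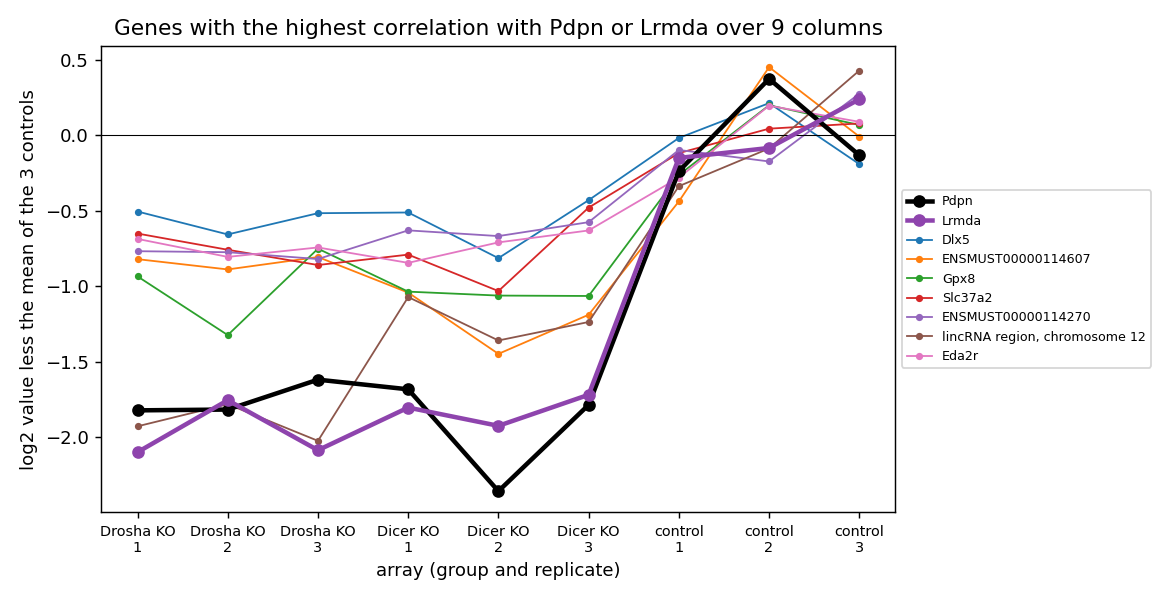
Authors' log2 value less the mean of the 3 controls, by array, for Pdpn and Lrmda (thick lines) and the 7 other genes or regions with the highest correlation with either (thin lines). All lines are lower on the 6 KO arrays than on the controls, and on each KO array the lowest line is Pdpn or Lrmda, with Pdpn at its lowest in Dicer KO replicate 2.

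Genes beside the pair on their chromosomes were compared by gene order in the GRCm38.p6 table. Of the 10 neighbours of Pdpn 7 were measured, and by limma 0 passed in any of the 3 comparisons, with 0 at an unadjusted p under 0.05, a limit that 26.9%, 21.9% and 5.65% of all genes passed. Their differences ran from −0.22 to 0.60 in Drosha KO minus control and from −0.32 to 0.37 in Dicer KO minus control. The flanking genes were Prdm2, a histone methyltransferase, at 0.03 and 0.17, and Lrrc38, a potassium channel subunit, at 0.60 and 0.37. Of the 10 neighbours of Lrmda 7 were measured and 0 passed by limma, with 3, 1 and 2 at an unadjusted p under 0.05 in the same 3 comparisons. Zfp503, a zinc finger gene on one side, differed by −0.64 and −0.21 (limma adjusted p = 0.106 and 0.486), and Kcnma1, a calcium-activated potassium channel on the other, by 0.50 and 0.47. The single lincRNA region of the array within 500 kb of the distal Pdpn probe was below the filter. No region of the array lay within 500 kb of the Lrmda probe. Positions farther from these probes were not searched.

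Marker genes of other cell types were measured beside the pair, as mean log2 values over the measured markers of each array. All 6 LSK markers were measured, at 11.22 to 11.69 in Drosha KO, 11.26 to 11.37 in Dicer KO and 11.32 to 11.55 in control. The 10 monocyte and macrophage markers, all measured, had means of 8.16 to 8.43 in Drosha KO, 8.07 to 8.80 in Dicer KO and 8.91 to 9.16 in control. In this mean every KO array was below every control, but among the 10 single genes only C1qa was separated in that way, beside 3.94% of all genes. The part of this list in the lower Pdpn and Lrmda values was not tested. Its genes had medians of −0.71 in Drosha KO and −0.35 in Dicer KO. By limma 1 of 10 passed in Drosha KO and 0 of 10 in Dicer KO, beside 0.169% and 0.0174% of all genes. At an unadjusted limma p under 0.05 there were 5 and 2 of 10, beside 26.9% and 21.9% of all genes.

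The one that passed was Cd14, a lipopolysaccharide co-receptor, which was lower in Drosha KO, at a difference of −1.26 log2 units (limma adjusted p = 0.0300). It no longer passed when any of 6 arrays was left out, namely control replicate 2 or 3, Drosha KO replicate 1 or 2, or Dicer KO replicate 1 or 2 (limma adjusted p = 0.0563 to 0.147). In Dicer KO its difference was −0.29 (limma adjusted p = 0.318). C1qa, a complement gene of macrophages, differed by −0.93 in Drosha KO and −1.32 in Dicer KO (limma adjusted p = 0.119 and 0.132).

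Dendritic cell markers, 8 of 8 measured, stood at 11.58 to 12.02 in Drosha KO, 10.88 to 11.77 in Dicer KO and 11.96 to 12.06 in control. Megakaryocyte and platelet markers, 9 of 9 measured, stood at 13.03 to 13.71, 12.81 to 12.93 and 13.28 to 13.89, so the Dicer KO arrays were below the controls in both lists. By limma 0 of 8 dendritic and 0 of 9 megakaryocyte markers passed against control in either deletion, beside 0.169% and 0.0174% of all genes. At an unadjusted limma p under 0.05 there were 5 of 8 and 8 of 9 in Dicer KO, beside 21.9% of all genes. In Drosha KO there were 1 of 8 and 1 of 9, beside 26.9%. Mast cell and basophil markers overlapped between the groups, at 11.69 to 12.68, 11.55 to 12.47 and 11.78 to 12.67. Their part in the values of the pair was not tested. The lineage markers Cd3e, Cd4, Cd79a and Itgam stood at 11.01 to 11.28 in Drosha KO, 10.94 to 11.04 in Dicer KO and 9.99 to 10.95 in control, with control replicates 2 and 3 the lowest.

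Markers of cells in which these genes are best known were measured only in part. Of 11 stromal and lymphatic endothelial markers 4 were measured, and Pdgfra, Col1a1, Cxcl12, Prox1, Lyve1, Flt4 and Cdh5 were not above background in all arrays of any group. The 4 measured stood at 8.95 to 9.40 in Drosha KO, 8.80 to 9.28 in Dicer KO and 8.62 to 8.79 in control. In this mean every KO array was above every control, with the lowest KO array at 8.798 and the highest control at 8.789. By limma 0 of the 4 passed against control in either deletion, beside 0.169% and 0.0174% of all genes. At an unadjusted limma p under 0.05 there was 1 of 4 in each deletion, beside 26.9% and 21.9% of all genes. Lepr, the leptin receptor, differed by 1.29 in Drosha KO and 0.96 in Dicer KO (limma adjusted p = 0.109 and 0.190), and the collagen genes Col1a2 by −0.01 and 0.10 and Col3a1 by 0.0096 and 0.15. Lepr in control replicate 1, at 11.635, lay within the range of the KO arrays, 11.50 to 12.51. Pdgfrb, a receptor of stromal cells, differed by 0.27 and −0.14. Of 7 melanocyte markers 4 were measured, Dct, Tyrp1 and Mlana were below the filter, and the levels overlapped at 7.85 to 8.19, 7.70 to 8.18 and 7.78 to 8.26. By limma 0 of these 4 passed against control in either deletion. At an unadjusted limma p under 0.05 there were 1 of 4 in Drosha KO and 0 of 4 in Dicer KO, beside the same shares of all genes.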

How the data were processed

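RNA of 9 LSK cultures (Drosha KO, Dicer KO and control, 3 each, grouped by title) was hybridised to one-colour Agilent arrays of design 028005. The deposited scanner files hold Cy3 intensity values from Feature Extraction 10.7.3.1 under protocol GE1_107_Sep09, per the file headers, background-subtracted but not scaled between arrays. The authors' series values are log2, with near-identical quantiles from column to column. The submitters' processing notes name limma, and the sources used here give no other step. The number of arrays limits the precision.

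Of 62976 spots, 3671 control spots were left out. Spots marked as non-uniform or population outliers were also left out of the scanner values. A probe was kept when all arrays of 1 or more groups had it well above background (31490 of 55681 probes), and the brightest kept probe stood for a gene. The authors' values were fitted in R 4.3.3 by limma 3.58.1, as a mean per group over 9 arrays, with two-sided moderated tests and Benjamini-Hochberg adjustment over 23027 genes or regions at 0.05. It was tested on simulated data. Scanner signal scaled by the 75th percentile, normexp (offset 50) with quantile scaling, no filter, a replicate block, a slide block, each array left out, and control replicate 1 as the only control were alternatives, the last and normexp without control replicate 2 being chosen after seeing the data. Deviations from the group means correlated at −0.28 to 0.24 for same-numbered samples of different groups, and at −0.29 to 0.28 for differently numbered ones. The main fit therefore used no pairing by number, and whether the samples were paired is not known.

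The pair and the lists were chosen with earlier results of these data known. The naming rule took all probes of the pair, Drosha and Dicer1, the 5 genes most correlated with each, up to 3 members per pathway list by smallest p (others are named for their role), 5 neighbour genes on each side, and genes next to the threshold. Markers named beyond it, and Mmp12, were chosen after their values were seen. Some lineage markers are not reported here. Symbols and gene order came from a GRCm38.p6 table and probe positions from the files (mm9). Probes were named by accession (26413), symbol (3859), synonym (735) or region (16194), and 8480 kept the file's name.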

Additional observations from a re-analysis of the deposited data

Results flagged for a closer look

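The junction probe of Pdpn gave a processed signal of 542 in the scanner file of control replicate 2, whereas it was not well above background on any other array, where the next highest signal was 20.9. The authors' value of the same probe for that sample was 5.56, inside the range of the other columns. Control replicate 2 is also the sample whose column does not match its scanner file, and what the file holds was not tested.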

How the results depend on the processing

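Both genes were lower than control in Drosha KO and in Dicer KO under all 20 settings, and the size moved with the source of the values. The choice of the genes favours that sign, and the settings are not independent. Some leave a difference unchanged, and slide as a block gives the same values as leaving out control replicate 3, which was alone on its slide. For Pdpn the scanner signal gave −1.43 in Drosha KO with all arrays, and −2.11 in Drosha KO and −2.6 in Dicer KO without control replicate 2. Normexp gave −0.58 and −0.76 for Pdpn with all arrays, and −1.23 and −1.41 without control replicate 2. For Lrmda, scanner signal gave −2.43 and −2.14 and normexp −1.69 and −1.56. These are the same with or without control replicate 2, because its Lrmda spot was marked non-uniform and left out of both. Why the size moved with the source of the values was not tested. With each array left out, Pdpn ranged from −1.87 to −1.57 in Drosha KO and from −2.07 to −1.74 in Dicer KO, and Lrmda from −2.09 to −1.86 and from −1.89 to −1.70. Between the deletions, Pdpn ranged from −0.018 to 0.32, the −0.018 being the reversed value without Dicer KO replicate 2, and Lrmda from −0.28 to −0.10.

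Counts past the threshold were far less stable. For Drosha KO against control 39 became 13 with scanner signal, 10 without control replicate 2, 1 with normexp, 7 with normexp without control replicate 2, 25 with no filter, 13 with slide as a block and 4 with the replicate block. For Dicer KO against control 4 became 0 with normexp (limma, 1794 at an unadjusted p under 0.05), 2 with normexp without control replicate 2, 2 with no filter, 0 with the replicate block (limma, 4537 unadjusted) and 21 with control replicate 1 as the only control. For Drosha KO against Dicer KO 13 became 3 with scanner signal, 5 without control replicate 2, 1 with normexp, 7 with slide as a block and 5 with the replicate block. Arrays left out in turn gave 4 to 7747, 0 to 7028 and 4 to 16 for these comparisons, the highest counts against control being those without control replicate 1 and the 0 arising without any 1 Dicer KO array. The lone array in the fit with 1 control is assumed to vary like the other groups. Signal over background limits Pdpn in Dicer KO replicate 2, where its distal probe was not well above background.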
